A study of Homo sapiens with 12 samples.

Results

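The aminoacyl-tRNA synthetase genes are described here across 4 drug treatments of cultured human cells. The list held 35 genes, 19 of cytosolic enzymes and 16 of mitochondrial enzymes (names ending in 2). Its members are listed by name, and it was chosen with earlier results of these data known. Of these, 32 were measured among the 19775 genes on the arrays, 17 cytosolic and 15 mitochondrial, each through its brightest probe set that carried a single gene symbol. MARS1, QARS1 and TARS2 were matched only by probe sets that carry several symbols and were not analysed here.

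The samples were 12 RNA preparations labelled PC3, a prostate cancer line, in 4 groups of 3, hybridised to Affymetrix 3-prime expression arrays. They were untreated control cells, cells given Wee1 inhibitor II at 2.5 µM, cells given 17-AAG at 40 nM, and cells given both drugs at those doses. Wee1 inhibitor II targets Wee1, the kinase that holds CDK1 inactive, and 17-AAG blocks the chaperone Hsp90. In the protocol Wee1 inhibitor II was given first, 17-AAG followed 24 h later, and cells were harvested 48 h after that, so Wee1 inhibitor II had acted for 72 h. The protocol gave vehicle to the controls, which the labels call untreated. Control replicate 2 is labelled as weak in signal and was left out, which leaves 11 arrays: 2 control arrays (replicates 1 and 3) and 3 in each treated group. The design text calls the arrays experimental replicates, and nothing says that they came from separate cultures, so the p-values here speak only of the scatter among these arrays, and that scatter may be technical.

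Aminoacyl-tRNA synthetases join each amino acid to its tRNA, the step that sets the meaning of a codon before the ribosome reads it. The cytosolic enzymes serve nuclear-coded messages and the mitochondrial enzymes, also coded in the nucleus, serve the few proteins made inside mitochondria. When amino acids run short or the kinases of the integrated stress response are active, the transcription factor ATF4 is known to induce many cytosolic synthetase genes together with genes of amino acid synthesis and transport. Several cytosolic enzymes are held in a multi-synthetase complex, and both sets fall into class I and class II by the fold of their catalytic domain.

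The arrays did not all carry the transcripts expected of their label. On the 11 arrays compared, the pigment cell genes MLANA, PMEL and TYRP1 had signals of 2865 to 9916, 3694 to 9203 and 11119 to 15390, and HOXB13, a prostate transcription factor gene, stayed between 2.14 and 11.3. CTNNA1, which PC3 cells are known to lack, read 2559 to 5040 there. On control replicate 2 HOXB13 was at 2087, MLANA at 2.67 and CTNNA1 at 1.57. STAT3, also listed as lost in PC3, read 819 to 1296 on the 11 arrays and 7.54 on control replicate 2. The pigment cell gene SOX10 read 1290 to 1975 and 5.54. The epithelial genes EPCAM and KRT8 read at most 26.2 and 45.5 on the 11 arrays, and 1096 and 615 on control replicate 2. Not all markers differed in this way, since the pigment gene MLPH (1736) and the epithelial or prostate genes CDH1 (5.55), KRT19 (1.58) and KLK3 (79.9) lay within the range of the 11 arrays. Control replicate 2 correlated with the 11 others at 0.824 to 0.832, against 0.912 to 0.936 among those 11. The groups below are therefore those of the labels, and whether the 11 arrays hold PC3 cells cannot be told from the labels. Values that include control replicate 2 are given in the closing section.

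Some markers moved with the drugs. The summed signal of 9 measured pigment cell genes was 35566 to 36913 on the control arrays, 30553 to 33037 with Wee1 inhibitor II, 44138 to 49568 with 17-AAG and 52806 to 54141 with both drugs. The sum is carried by a few bright genes. By the test described in the next paragraph, 2 of the 9 rose and 4 fell with Wee1 inhibitor II, 7 rose with 17-AAG and 9 with both drugs. Of all genes 14.5% rose and 10.3% fell with Wee1 inhibitor II, and 9.93% and 16.7% rose with 17-AAG and with both drugs. The summed signal of 6 fibroblast genes, mostly that of LUM, was 1084 to 1224, 430 to 477, 1782 to 1925 and 781 to 840 in the same order. Summed signals of 4 measured blood genes and 4 endothelial genes stayed at or below 89.5 and 61.1 on the 11 arrays. The 3-prime to 5-prime gap of the ACTB probe sets, a measure of RNA quality on the log2 scale, was 0.69 ± 0.03 (SD, n = 2) in controls and 0.68 ± 0.09 (n = 3) with Wee1 inhibitor II. It was wider on the 17-AAG arrays, 0.96 ± 0.08 (n = 3), and on the both-drug arrays, 0.96 ± 0.05 (n = 3). The same gap for GAPDH lay between -0.090 and 0.006 on the 11 arrays, with group means of -0.063 in controls, -0.050 with Wee1 inhibitor II, -0.037 with 17-AAG and -0.012 with both drugs. DNAJB1, a chaperone gene of the heat shock response looked at after its values were seen, read 1186 and 1197 in controls and 480, 490 and 564 with 17-AAG. Of 4 measured heat shock genes 2 fell with 17-AAG, 2 fell with Wee1 inhibitor II, and 1 rose and 1 fell with both drugs. In that order 6.80%, 10.3% and 11.3% of all genes were called lower, and 16.7% higher with both drugs. The part of these in the results below was not tested. In such bulk RNA, fewer cells of a type and less RNA per cell cannot be told apart.

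With Wee1 inhibitor II alone, calls were made in both compartments. Of 17 measured cytosolic genes 9 rose and 3 fell, and of 15 mitochondrial genes 6 fell and the other 9 did not pass the test. The 9 that rose were WARS1, SARS1, CARS1, AARS1, GARS1, EPRS1, IARS1, YARS1 and LARS1, and RARS1, FARSA and FARSB fell. Calls rest on limma's moderated test, with Benjamini-Hochberg adjustment across the 19775 genes, and were taken at an adjusted p under 0.05. By the same rule 24.9% of all genes were called in this comparison, 14.5% higher and 10.3% lower. That balance depended on scaling. With each array centred on its median, 1444 of all genes were higher and 2875 lower, in place of 2877 and 2045. The median log2 fold change was 0.64 for the cytosolic genes and -0.12 for the mitochondrial genes, beside 0.12 for all genes. In 11 cytosolic genes every treated array lay above both control arrays and in 4 below, where 28.9% of all genes lay above and 20.1% below. The mitochondrial genes had 3 above and 8 below.

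WARS1, which charges tryptophan and is also known as an interferon-gamma target, had the highest fold change of the members. Its signal was 585 and 548 on the control arrays and 2354, 2225 and 2052 with Wee1 inhibitor II, so that the groups were far apart. The log2 fold change was 1.96 ± 0.14 (SE; limma adjusted p = 7.99e-05), and the other WARS1 probe set gave 1.72 ± 0.17. Its mitochondrial partner WARS2 read 140 and 149 in controls against 178, 161 and 184. All 3 treated arrays of WARS2 lay above the controls, yet the change of 0.27 ± 0.11 did not pass (limma adjusted p = 0.118).

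SARS1, the seryl enzyme of the cytosol, had signals of 1104 and 1235 in controls and 2942, 2936 and 3173 with Wee1 inhibitor II (1.37 ± 0.12, limma adjusted p = 0.000191). CARS1, which charges cysteine, went from 2407 and 2565 to 6631, 6172 and 6365 (1.36 ± 0.10, limma adjusted p = 9.86e-05). In both genes the lowest treated array was more than 2-fold above the highest control. AARS1, the alanyl enzyme, went from 203 and 199 to 351.3, 484 and 418, with a wider spread among the treated arrays (1.04 ± 0.14, limma adjusted p = 0.00111). GARS1 codes for the glycyl enzyme of both compartments, and it went from 3034 and 3244 to 6384, 6239 and 6299 (1.01 ± 0.11, limma adjusted p = 0.000561).

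The remaining risers changed less. IARS1, the isoleucyl enzyme, had 2966 and 3207 in controls and 5161, 4827 and 5133 after treatment (0.71 ± 0.09, limma adjusted p = 0.000868). EPRS1, a single protein that charges both glutamate and proline, changed by 0.72 ± 0.11, YARS1, the tyrosyl enzyme, by 0.65 ± 0.11 and LARS1, the leucyl enzyme, by 0.64 ± 0.10. Treated arrays did not overlap the controls in any of these 4 genes. YARS1 lost its call with median-centred arrays (0.43, limma adjusted p = 0.0822).

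The cytosolic genes that fell were few. RARS1, the arginyl enzyme, had the largest fall, from 2740 and 2906 in controls to 1448, 1276 and 1614 (-0.97 ± 0.22, limma adjusted p = 0.0136). This call was lost without control replicate 1 or without control replicate 3 (limma adjusted p of 0.0593 to 0.0797), where the lone control is taken to vary like the other groups. FARSA and FARSB code for the subunits of the phenylalanyl enzyme. FARSA fell from 510 and 499 to 328, 296 and 346 (-0.64 ± 0.12, limma adjusted p = 0.00517), and its other probe set fell by 0.87 ± 0.15. FARSB went from 733 and 763 to 589, 633 and 595 (-0.30 ± 0.09, limma adjusted p = 0.0482). The call of FARSB was lost on leaving out any of 10 of the 11 arrays, all but the both-drug replicate 3 (limma adjusted p of 0.0538 to 0.201).

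TARS1, NARS1, HARS1, KARS1 and VARS1 did not pass with Wee1 inhibitor II. KARS1, which like GARS1 supplies both compartments, read 5106 and 5497 in controls and 4885, 5265 and 5516 after treatment (-0.02 ± 0.09, limma adjusted p = 0.902), and the groups overlapped. HARS1, the histidyl enzyme, read 810 and 877 against 864, 872 and 842 (0.03 ± 0.08, limma adjusted p = 0.858). HARS2 read 148 and 151 against 185, 170 and 181 (0.26 ± 0.14, limma adjusted p = 0.247), above the controls on each array but not past the test.

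Among mitochondrial genes, MARS2, the methionyl enzyme, fell most, from 129 and 129 in controls to 68.3, 57.2 and 66.6 (-1.01 ± 0.12, limma adjusted p = 0.00078). EARS2, which charges glutamate, fell from 332 and 341 to 163, 176 and 204 (-0.90 ± 0.11, limma adjusted p = 0.000716). NARS2, the asparaginyl enzyme, fell from 1026 and 1035 to 658, 626 and 575 (-0.74 ± 0.09, limma adjusted p = 0.000745). In all 3 the highest treated array stayed well below the lowest control. YARS2, the tyrosyl enzyme, fell from 640 and 721 to 404, 306 and 391 (-0.90 ± 0.15, limma adjusted p = 0.00323). LARS2, the leucyl enzyme, fell from 563 and 595 to 388, 384 and 436 (-0.52 ± 0.09, limma adjusted p = 0.00386). IARS2 went from 1864 and 1974 to 1597, 1567 and 1621, a small change of -0.27 ± 0.08 (limma adjusted p = 0.0451) that was no longer called without any 1 of the 11 arrays (limma adjusted p of 0.0514 to 0.215). PARS2, the prolyl enzyme, and AARS2, CARS2, FARS2, RARS2, SARS2 and VARS2 did not pass, with changes between -0.22 and 0.22.

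Without each of the 11 arrays in turn, 15 of the 18 calls for Wee1 inhibitor II were kept. The 18 calls could also be set against other probe sets of the same genes. Of 13 such probe sets with a mean signal of at least 100, 13 had the same sign and 12 were called as well. Over dimmer ones too, 16 of 18 had the same sign. Averaging the probe sets of a gene ended the calls of YARS1 (0.51, limma adjusted p = 0.0739), FARSB and IARS2. Quantile normalisation also ended those of FARSB (-0.27, limma adjusted p = 0.0703) and IARS2 (-0.18, limma adjusted p = 0.146). With median-centred arrays CARS2 was called lower (-0.34, limma adjusted p = 0.0474).

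**Figure D1:**
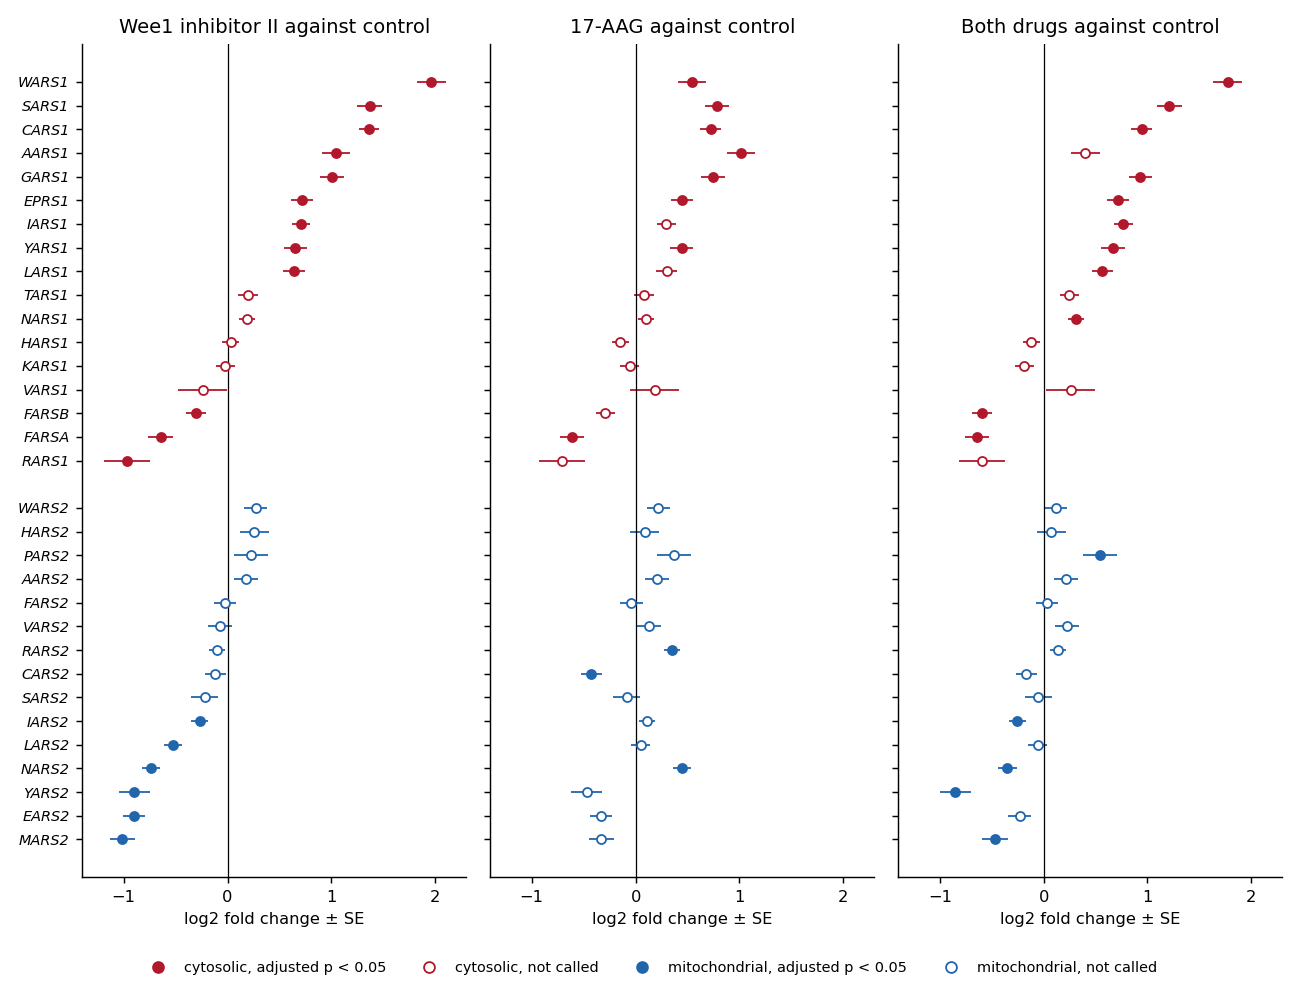
Log2 fold change of each measured synthetase gene against control (points, with SE bars), for Wee1 inhibitor II, 17-AAG and both drugs; cytosolic genes are red, mitochondrial genes blue, and filled points have a limma adjusted p under 0.05. With Wee1 inhibitor II, 9 of 17 cytosolic genes lie to the right as filled points and 6 of 15 mitochondrial genes to the left, while the spread is narrower for 17-AAG.

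Promoters were set beside these calls because the risers moved together. RefSeq promoter windows of GRCh38.p14 are 300 bases that run from 250 before to 50 after an annotated start. Windows were found for 30 of the 35 genes and not for AARS2, LARS1, VARS1, VARS2 and YARS1. They were searched on both strands for TGATGNAA, the response element of C/EBP and ATF factors, and for its form TGATGCAA. TGATGNAA was found in 7 windows, 6 of 16 cytosolic and 1 of 14 mitochondrial, where 3.67% of all 27305 windows hold it. TGATGCAA was found in 6, all cytosolic, against 0.923% of all windows. The stretches of 30 bases around the matches are shown to let the shared letters be seen. Capitals mark the match, and TTGCATCA is TGATGCAA read on the other strand.
AARS1: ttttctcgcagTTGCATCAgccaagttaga
CARS1: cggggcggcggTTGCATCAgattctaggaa
IARS1: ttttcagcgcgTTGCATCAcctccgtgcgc
MARS1: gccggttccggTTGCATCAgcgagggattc
NARS1: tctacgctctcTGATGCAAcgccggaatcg
TARS1: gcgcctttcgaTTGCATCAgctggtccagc
YARS2: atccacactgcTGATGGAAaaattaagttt
In GRCh38.p14 these lie at chr16:70289675-70289704 (minus strand, AARS1), chr11:3057407-3057436 (minus, CARS1), chr9:92293692-92293721 (minus, IARS1), chr12:57488053-57488082 (plus, MARS1), chr18:57621804-57621833 (minus, NARS1), chr5:33440956-33440985 (plus, TARS1) and chr12:32756076-32756105 (minus, YARS2).

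Genes that hold these letters had different calls. With Wee1 inhibitor II, AARS1, CARS1 and IARS1 rose, whereas NARS1 (0.19 ± 0.08, limma adjusted p = 0.13) and TARS1 (0.20 ± 0.09, limma adjusted p = 0.177) did not pass and YARS2 fell. The windows of EPRS1, GARS1, SARS1 and WARS1, which rose, held no match, which says only that these letters are not in these windows. In the windows of CARS1, IARS1 and MARS1 the match begins at base 249, 238 and 247, close before the start used for the window. In those of TARS1 and NARS1 it begins at base 253 and 265, just after that start. The whole TARS1 window, from chr5:33440715, lies inside the annotated span of the gene, which begins at 33440696. In AARS1 and YARS2 it begins farther upstream, at base 64 and 54. The windows of the neighbours HARS1 and HARS2, which are read in opposite directions, overlap by 184 bases, and neither gene was called with Wee1 inhibitor II.

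With 17-AAG alone, fewer members were called. AARS1, SARS1, GARS1, CARS1, WARS1, EPRS1 and YARS1 rose, 7 of 17 cytosolic genes, and FARSA fell. Of 15 mitochondrial genes NARS2 and RARS2 rose and CARS2 fell. Over all genes 16.7% were called, 9.93% higher and 6.80% lower. The medians were 0.30 for the cytosolic and 0.09 for the mitochondrial genes, beside 0.01 for all genes. Every 17-AAG array lay above both controls in 11 cytosolic and 6 mitochondrial genes and below them in 4 and 4, where 23.1% of all genes lay above and 21.2% below. This comparison shares its 2 control arrays with that of Wee1 inhibitor II.

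AARS1 had the highest fold change with 17-AAG. Its signals were 380, 399 and 445, against 203 and 199 in controls (1.02 ± 0.14, limma adjusted p = 0.00259). SARS1 read 2154, 1727 and 2184 (0.78 ± 0.12, limma adjusted p = 0.00399), above its controls of 1104 and 1235 and below each array with Wee1 inhibitor II. GARS1 read 5485, 4525 and 5886 (0.75 ± 0.11, limma adjusted p = 0.00409). CARS1 read 4331, 3634 and 4376 (0.72 ± 0.10, limma adjusted p = 0.00304). WARS1 moved less here, to 911, 684 and 901 (0.54 ± 0.14, limma adjusted p = 0.0304), and EPRS1 to 2178, 1974 and 2139 (0.45 ± 0.11, limma adjusted p = 0.0237). In SARS1, GARS1, CARS1, WARS1 and EPRS1 replicate 2 was the lowest of the 3 arrays with 17-AAG, though still above the controls.

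FARSA read 326, 353 and 311 with 17-AAG, below its controls of 510 and 499 (-0.61 ± 0.12, limma adjusted p = 0.0101). NARS2 went the other way from its fall with Wee1 inhibitor II. It read 1429, 1375 and 1419, all above the controls of 1026 and 1035 (0.45 ± 0.09, limma adjusted p = 0.0111). RARS2, the arginyl enzyme of mitochondria, rose from 531 and 506 to 679, 622 and 681 (0.35 ± 0.08, limma adjusted p = 0.0169). CARS2, the cysteinyl enzyme, fell from 255 and 267 to 184, 190 and 208 (-0.43 ± 0.10, limma adjusted p = 0.0248).

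Of the 11 calls for 17-AAG 4 were kept throughout. AARS1, CARS1, GARS1 and SARS1 kept theirs without each array in turn. FARSA and NARS2 lost theirs without control replicate 1 or 3 (limma adjusted p of 0.0547 to 0.0636 and 0.0596 to 0.0658). EPRS1 and RARS2 lost theirs without either control or without 17-AAG replicate 1 or 3 (limma adjusted p of 0.0702 to 0.133 and 0.0566 to 0.104). WARS1 lost its call without these or without the both-drug replicate 1 (limma adjusted p of 0.05 to 0.152), and CARS2 without either control or without 17-AAG replicate 1 or 2 (limma adjusted p of 0.0559 to 0.13). YARS1 (0.44 ± 0.11, limma adjusted p = 0.0332) lost its call without any of 8 arrays, namely each control, each array with Wee1 inhibitor II, 17-AAG replicates 1 and 3 and the both-drug replicate 3 (limma adjusted p of 0.0506 to 0.145). Of genes not called, IARS1, LARS1 and RARS1 passed without 17-AAG replicate 2 (limma adjusted p of 0.033, 0.0443 and 0.0263). The number of members called was 4 without control replicate 1, 4 without control replicate 3, 6 without 17-AAG replicate 1 and 7 without 17-AAG replicate 3. Averaging the probe sets of a gene ended the calls of CARS1 (0.39, limma adjusted p = 0.178), EPRS1, YARS1, CARS2 and RARS2, and LARS1 and EARS2 were then called. Of 8 other probe sets of called members at a mean signal of at least 100, 8 had the same sign and 2 were called, and over dimmer ones too 14 of 18 had the same sign. With only the 5 arrays of these groups fitted, limma called 0 of the 32 members and 0 of all genes, while 15 members and 4816 genes had an unadjusted p under 0.05. With median-centred arrays, 5 members rose and 2 fell in place of 9 and 2. Over all genes 1404 then rose and 800 fell in place of 1964 and 1345.

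**Figure D2:**
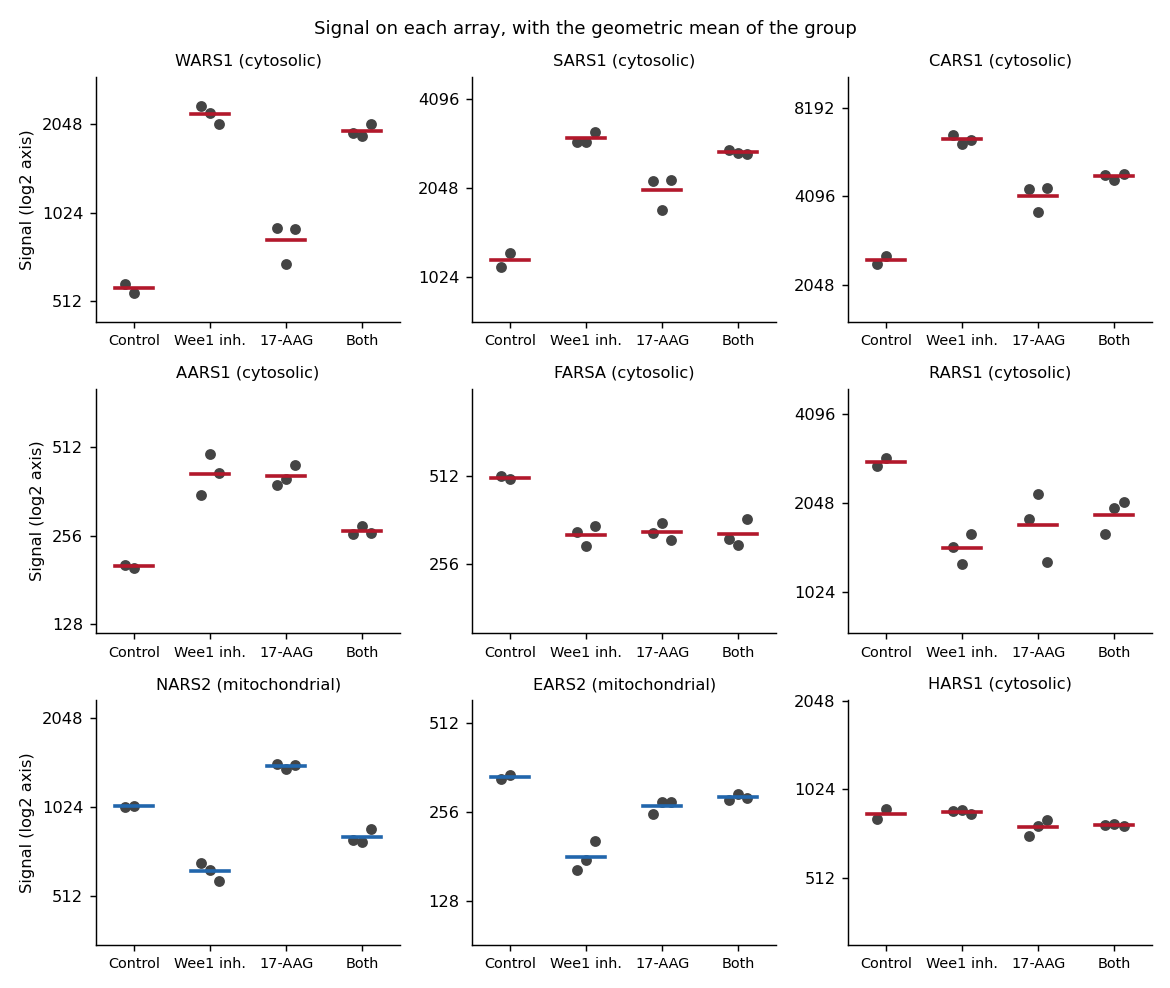
Signal on each of the 11 arrays (points) with the geometric mean of each group (bars) on a log2 axis, for 7 cytosolic and 2 mitochondrial genes. WARS1 is high with Wee1 inhibitor II and with both drugs, AARS1 is high with either drug alone, and NARS2 lies above its controls with 17-AAG and below them in the groups given Wee1 inhibitor II.

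With both drugs, 9 of 17 cytosolic genes rose, FARSA and FARSB fell, and of 15 mitochondrial genes 4 fell and 1 rose. The 9 were WARS1, SARS1, CARS1, GARS1, IARS1, EPRS1, YARS1, LARS1 and NARS1. In this comparison 28.0% of all genes were called, 16.7% higher and 11.3% lower. The medians were 0.40 and -0.05 for the cytosolic and mitochondrial genes, beside 0.11 for all genes. Every both-drug array lay above the controls in 11 cytosolic and 4 mitochondrial genes and below them in 5 and 6, where 30.7% of all genes lay above and 20.8% below.

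WARS1 read 1903, 1867 and 2040 with both drugs (1.77 ± 0.14, limma adjusted p = 6.72e-05). SARS1 read 2759, 2686 and 2669 (1.21 ± 0.12, limma adjusted p = 0.000189), and CARS1 4823, 4647 and 4875 (0.94 ± 0.10, limma adjusted p = 0.00028). IARS1 read 5122, 5279 and 5365 (0.77 ± 0.09, limma adjusted p = 0.00039), and GARS1 6090, 5862 and 5999 (0.93 ± 0.11, limma adjusted p = 0.000543). In these 5 genes the 3 arrays lay close together and far above the controls. EPRS1 changed by 0.71 ± 0.11, YARS1 by 0.67 ± 0.11 and LARS1 by 0.56 ± 0.10. NARS1, the asparaginyl enzyme of the cytosol, went from 4297 and 4412 to 5553, 5438 and 5256 (0.31 ± 0.08, limma adjusted p = 0.0178). AARS1 read 259, 276 and 262, above the controls of 203 and 199 but not past the test (0.40 ± 0.14, limma adjusted p = 0.0618).

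FARSB read 510, 529 and 451 with both drugs, below its controls and below each array with Wee1 inhibitor II (-0.59 ± 0.09, limma adjusted p = 0.00205). The difference from Wee1 inhibitor II alone did not pass (-0.29 ± 0.08, limma adjusted p = 0.059). FARSA read 311, 297 and 366 (-0.64 ± 0.12, limma adjusted p = 0.00416). Among mitochondrial genes YARS2 read 345, 367 and 421 (-0.85 ± 0.15, limma adjusted p = 0.00323). NARS2 read 791, 777 and 862 (-0.35 ± 0.09, limma adjusted p = 0.0186), and MARS2 97.0, 80.8 and 103 (-0.47 ± 0.12, limma adjusted p = 0.0217). PARS2 was the mitochondrial gene that rose, from 64.4 and 49.7 to 73.2, 88.6 and 87.1 (0.55 ± 0.16, limma adjusted p = 0.0384). Its 2 controls differed by more than those of the other members (SD 0.26 on the log2 scale). IARS2 fell by 0.26 ± 0.08 (limma adjusted p = 0.048).

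For both drugs, 11 of the 16 calls were kept without each array in turn. IARS2 lost its call without any 1 of the 11 arrays (limma adjusted p of 0.0537 to 0.226). PARS2 lost its call without any of 6 arrays, which were control replicate 3, Wee1 inhibitor II replicate 2, 17-AAG replicates 1 and 3 and both-drug replicates 2 and 3 (limma adjusted p of 0.0508 to 0.256). MARS2 lost its call without either control (limma adjusted p of 0.0934 to 0.0937), NARS1 without either control or the both-drug replicate 1 (0.0556 to 0.0945), and NARS2 without either control or the both-drug replicate 1 or 2 (0.0561 to 0.0895). AARS1 passed without Wee1 inhibitor II replicate 1 or 2 (limma adjusted p of 0.0284 to 0.0334) and RARS1 without 17-AAG replicate 3 (limma adjusted p = 0.031). With median-centred arrays, 7 members rose and 8 fell in place of 10 and 6. Over all genes 1933 then rose and 2805 fell in place of 3306 and 2233. Under that centring NARS1, YARS1 and PARS2 were not called, and RARS1 and CARS2 were called lower. Averaging the probe sets of a gene ended the calls of SARS1 (0.62, limma adjusted p = 0.0515), FARSB (-0.68, limma adjusted p = 0.166), IARS2 and PARS2. Of 10 other probe sets of called members at a mean signal of at least 100, 10 had the same sign and 9 were called, and over dimmer ones too 13 of 14 had the same sign.

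Set against each other, the single drugs differed in both compartments. With Wee1 inhibitor II, WARS1, CARS1, SARS1, IARS1 and LARS1 were higher than with 17-AAG, and 6 of 15 mitochondrial genes were lower. In this comparison 18.7% of all genes were called, 10.2% higher and 8.52% lower. WARS1 differed by 1.42 ± 0.12 (limma adjusted p = 0.000182), CARS1 by 0.64 ± 0.09 (limma adjusted p = 0.002) and SARS1 by 0.58 ± 0.11 (limma adjusted p = 0.00635). NARS2 differed by -1.19 ± 0.08 (limma adjusted p = 5.59e-05), with 575 to 658 on one side and 1375 to 1429 on the other. MARS2 (-0.68 ± 0.11), LARS2 (-0.57 ± 0.08), EARS2 (-0.57 ± 0.10), RARS2 (-0.45 ± 0.07) and IARS2 (-0.38 ± 0.07) were also lower with Wee1 inhibitor II. AARS1 did not differ past the test between the single drugs (0.03 ± 0.12, limma adjusted p = 0.921). LARS1 (0.34 ± 0.09, limma adjusted p = 0.0367) lost its call without any of 8 arrays, 17-AAG replicates 1 and 2 and each array of the other drug groups (limma adjusted p of 0.055 to 0.103). VARS1 passed without the both-drug replicate 1 (limma adjusted p = 0.0442) and CARS2 without Wee1 inhibitor II replicate 2 (limma adjusted p = 0.0477). With arrays centred on their medians 1 member was higher and 8 lower in place of 5 and 6. WARS1 was the one still called higher. Over all genes that centring gave 748 higher and 2704 lower in place of 2011 and 1685. Averaging the probe sets of a gene ended the calls of CARS1 (0.50), SARS1 (0.17), LARS1 (0.29), EARS2 (-0.12) and RARS2 (-0.03), with limma adjusted p of 0.0548, 0.591, 0.0975, 0.502 and 0.971. Of 17 other probe sets of called members 11 had the same sign and 5 were called.

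Adding Wee1 inhibitor II to 17-AAG raised WARS1 by 1.23 ± 0.12 (limma adjusted p = 0.000421), IARS1 by 0.47 ± 0.08 (limma adjusted p = 0.00451) and SARS1 by 0.43 ± 0.11 (limma adjusted p = 0.0245). It lowered NARS2 (-0.80 ± 0.08, limma adjusted p = 0.000395), AARS1 (-0.62 ± 0.12, limma adjusted p = 0.00976), IARS2 (-0.37 ± 0.07, limma adjusted p = 0.00984) and FARSB (-0.30 ± 0.08, limma adjusted p = 0.0397). These 7 members stand beside 19.3% of all genes called, 10.9% higher and 8.43% lower. FARSB lost its call without any of 10 arrays, all but the both-drug replicate 2 (limma adjusted p of 0.052 to 0.121), and SARS1 without any 1 of the 3 both-drug arrays (limma adjusted p of 0.0651 to 0.0747). RARS2 passed without 17-AAG replicate 2 (limma adjusted p = 0.0488) and YARS2 without Wee1 inhibitor II replicate 2 (limma adjusted p = 0.0461). SARS1 and FARSB turned sign when all probe sets of a gene were averaged (-0.25 and 0.04), and of 4 other probe sets of called members 2 had the same sign and 1 was called. With arrays centred on their medians 1 member was higher and 6 lower, and with quantile normalisation 4 and 3, in place of 3 and 4. Over all genes these gave 790 higher and 2349 lower, and 1972 and 1760, in place of 2148 and 1668.

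Adding 17-AAG to Wee1 inhibitor II lowered AARS1 (-0.64 ± 0.12, limma adjusted p = 0.00984) and CARS1 (-0.42 ± 0.09, limma adjusted p = 0.0173). It raised 4 of 15 mitochondrial genes, all of which had fallen with Wee1 inhibitor II alone. EARS2 read 281, 294 and 285 with both drugs against 163, 176 and 204 with Wee1 inhibitor II (0.67 ± 0.10, limma adjusted p = 0.00243), and these arrays did not overlap. LARS2 read 526, 572 and 571 against 388, 384 and 436 (0.47 ± 0.08, limma adjusted p = 0.00623). MARS2 (0.54 ± 0.11, limma adjusted p = 0.0127) and NARS2 (0.39 ± 0.08, limma adjusted p = 0.0133) changed in the same direction. Of all genes 14.1% were called here, 7.27% higher and 6.84% lower. MARS2 lost its call without the both-drug replicate 1 (limma adjusted p = 0.0502), NARS2 without the both-drug replicate 3 (limma adjusted p = 0.0533), and CARS1 without Wee1 inhibitor II replicate 1 or 3 or both-drug replicate 1 or 2 (limma adjusted p of 0.0529 to 0.0597). RARS2 passed without 17-AAG replicate 2 (limma adjusted p = 0.0447). EARS2 (0.37, limma adjusted p = 0.0515) and CARS1 (-0.34, limma adjusted p = 0.202) lost their calls when probe sets were averaged, and of 7 other probe sets of called members 6 had the same sign and 3 were called. CARS1 was not called with arrays centred on their medians, which left 4 members higher and 1 lower in place of 4 and 2. Over all genes 1116 were then higher and 954 lower in place of 1438 and 1353.

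The interaction asks whether 17-AAG had the same effect with Wee1 inhibitor II as without it, on the log2 scale. It passed for 8 of 32 members, 5 cytosolic genes below 0 and FARSA, EARS2 and MARS2 above 0. Over all genes it passed for 11.8%, 4.82% above and 6.97% below 0. AARS1 had the largest value of the members. Its mean signal was 201 in controls, 414 with Wee1 inhibitor II, 407 with 17-AAG and 266 with both drugs, so the drugs together gave a lower signal than either alone (interaction -1.66 ± 0.18, limma adjusted p = 0.0018). CARS1 had means of 2485, 6387, 4099 and 4780 in that order (-1.14 ± 0.14, limma adjusted p = 0.00236), and SARS1 of 1168, 3015, 2010 and 2704 (-0.94 ± 0.16, limma adjusted p = 0.00865).

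GARS1 (-0.82 ± 0.15, limma adjusted p = 0.0125) and WARS1 (-0.73 ± 0.18, limma adjusted p = 0.0393) also lay below 0. EARS2 had means of 337, 180, 268 and 287 (1.00 ± 0.14, limma adjusted p = 0.00482), so that the low signal with Wee1 inhibitor II was not seen with both drugs. MARS2 had means of 129, 63.8, 103 and 93.1 (0.87 ± 0.16, limma adjusted p = 0.0135). FARSA stood near 322, 329 and 323 in the 3 treated groups against 504 in controls (0.62 ± 0.16, limma adjusted p = 0.0412). NARS2 did not pass (-0.06 ± 0.12, limma adjusted p = 0.811), with means of 1031, 619, 1408 and 809. The values of AARS1, CARS1, SARS1, EARS2 and MARS2 kept their calls without each array in turn. GARS1 lost its call without control replicate 1 (limma adjusted p = 0.0528). WARS1 lost its call without any of 10 arrays, all but 17-AAG replicate 2 (limma adjusted p of 0.0579 to 0.125). FARSA lost its call without any of 9, all but replicate 2 of 17-AAG and of both drugs (limma adjusted p of 0.0571 to 0.122). RARS1 (1.09 ± 0.30, limma adjusted p = 0.0511) passed without 17-AAG replicate 2 (limma adjusted p = 0.0245). Without control replicate 1 the count was 5. Averaging the probe sets of a gene ended the calls of CARS1 (-0.74), WARS1 (-0.75) and FARSA (0.62), with limma adjusted p of 0.0843, 0.0619 and 0.0569. LARS1 was then called (-0.60, limma adjusted p = 0.0499). With median-centred arrays WARS1 (-0.71) and FARSA (0.64) were not called (limma adjusted p of 0.0862 and 0.112). With quantile normalisation FARSA was not called (0.59, limma adjusted p = 0.052) and RARS1 was (1.11, limma adjusted p = 0.0423). Of 9 other probe sets of called members 8 had the same sign and 4 were called.

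**Figure D3:**
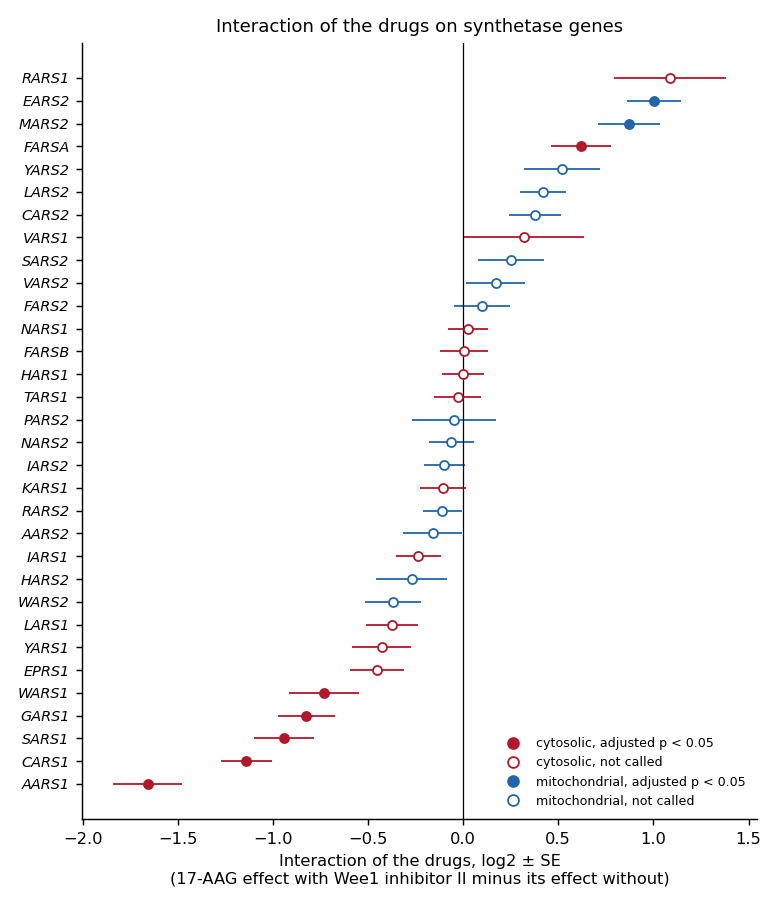
Interaction of the drugs for each measured synthetase gene on the log2 scale (points, with SE bars), that is the 17-AAG effect with Wee1 inhibitor II minus its effect without; filled points have a limma adjusted p under 0.05. AARS1, CARS1, SARS1, GARS1 and WARS1 lie as filled points on the left, and FARSA, EARS2 and MARS2 on the right.

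For 11 amino acids both the cytosolic and the mitochondrial gene were measured. With Wee1 inhibitor II the cytosolic fold change lay above the mitochondrial one in 8 pairs, with a median difference of 0.97, and below it for histidine, arginine and valine. The widest gaps were those of tryptophan (1.69), serine (1.59) and tyrosine (1.55). In 3 pairs, isoleucine, leucine and tyrosine, the cytosolic gene was called higher and the mitochondrial one lower. With 17-AAG 8 of 11 pairs had the cytosolic gene above, with a median difference of 0.25, and CARS was the pair with opposite calls. With both drugs 9 of 11 pairs had it above (median difference 0.66), and IARS, NARS and YARS had opposite calls. Of the 3 pairs with the cytosolic gene below, arginine had the widest gap, with RARS1 at -0.97 ± 0.22 and RARS2 at -0.10 ± 0.08. These are descriptions of named pairs, and the difference between the compartments was given no test.

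**Figure D4:**
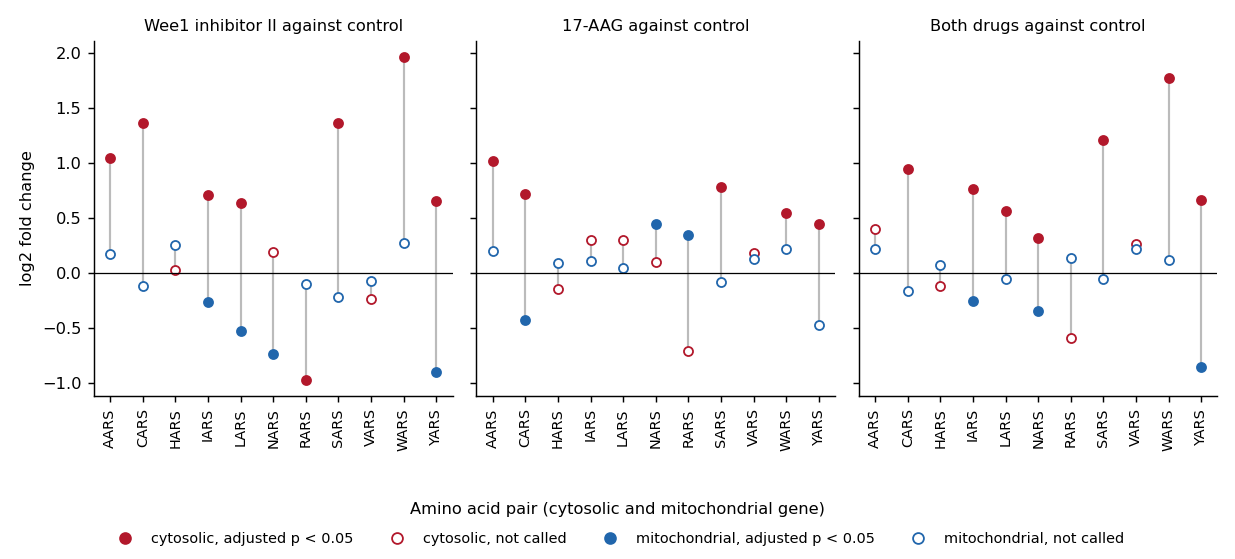
Log2 fold change against control of the cytosolic (red) and mitochondrial (blue) synthetase gene for 11 amino acids, each pair joined by a line; filled points have a limma adjusted p under 0.05. With Wee1 inhibitor II the red point lies above the blue one in 8 of 11 pairs, and RARS shows the widest gap the other way.

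Genes that rose were found inside and outside the multi-synthetase complex and in both enzyme classes. Of 5 measured members of the multi-synthetase complex EPRS1, IARS1 and LARS1 rose with Wee1 inhibitor II, RARS1 fell and KARS1 did not pass (median 0.64). These counts stand beside 14.5% of all genes called higher and 10.3% lower. Of 12 cytosolic genes outside it 6 rose and 2 fell (median 0.43). AIMP1, a scaffold protein of the complex, read 1607 and 1704 in controls and 1847, 1849 and 1839 with Wee1 inhibitor II, a change of 0.16 ± 0.07 that did not pass (limma adjusted p = 0.159) but was called with quantile normalisation (0.24, limma adjusted p = 0.0367) and lay at -0.07 with centred arrays. Of 7 class I cytosolic genes 5 rose and 1 fell, and of 9 class II cytosolic genes 3 rose and 2 fell. EPRS1, which rose, was counted in neither class. Among mitochondrial genes 5 of 9 in class I and 1 of 6 in class II fell.

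Other genes of tRNA charging and translation moved in part. Of 10 measured genes of tRNA export, proofreading and special charging 3 rose with Wee1 inhibitor II and 1 fell (median 0.31). For this and the next lists, 14.5% of all genes were called higher with this drug and 10.3% lower. XPOT, which exports tRNA from the nucleus, rose from 2550 and 2453 to 4245, 4554 and 4305 (0.80 ± 0.12, limma adjusted p = 0.00194). DTD1, which removes D-amino acids from tRNA, rose by 0.72 ± 0.09 (limma adjusted p = 0.00104) and SEPSECS, of the selenocysteine route, by 1.07 ± 0.19 (limma adjusted p = 0.00452). MTFMT, which formylates the initiator methionyl-tRNA of mitochondria, was the gene that fell (-0.57 ± 0.11, limma adjusted p = 0.00587), named after its value was seen. Of 9 cytosolic elongation, termination and recycling genes 4 rose and 3 fell (median 0.33), among them EEF2 (0.49 ± 0.08), ABCE1 (-0.52 ± 0.09) and ETF1 (-0.42 ± 0.07). EEF2 lost its call with quantile normalisation (0.19, limma adjusted p = 0.14) and with centred arrays (0.26, limma adjusted p = 0.0953). Of 9 mitochondrial translation factor genes MTIF3 rose by 0.44 ± 0.12, MTRF1, of peptide release, fell (-1.52 ± 0.09, limma adjusted p = 4.88e-05), and MTIF2 was not called (-0.17 ± 0.08). MTIF3 was not called with centred arrays (0.22, limma adjusted p = 0.366) or with averaged probe sets (0.09), and SEPSECS not with the latter (0.51, limma adjusted p = 0.0743). With centred arrays MTIF2 was called lower (-0.40, limma adjusted p = 0.034).

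The ATF4 pathway was set beside the synthetase genes. Its gene lists, like the other lists here, were chosen with earlier results of these data known. ATF4 itself read 4012 and 4102 in controls, 9851, 10130 and 9711 with Wee1 inhibitor II, 7727, 6431 and 8132 with 17-AAG and 8264, 8185 and 7577 with both drugs, and no treated array came near the controls. Its log2 fold changes were 1.29 ± 0.11, 0.87 ± 0.11 and 0.98 ± 0.11 (limma adjusted p of 0.000179, 0.00205 and 0.000355). Of 35 measured ATF4 target genes other than synthetases 26 rose and 2 fell with Wee1 inhibitor II (median 1.29), 22 rose with 17-AAG (median 0.94) and 25 with both drugs (median 1.08). Of all genes 14.5%, 9.93% and 16.7% were called higher in these comparisons. ASNS, which makes asparagine, rose by 2.36 ± 0.14 with Wee1 inhibitor II, PHGDH, of serine synthesis, by 1.97 ± 0.10 and PCK2, the mitochondrial PEP carboxykinase, by 2.45 ± 0.19. The interaction passed the test below 0 for 19 of these 35 genes and above 0 for 2, and the other 14 did not pass (median -0.88, beside 6.97% of all genes below and 4.82% above), with ATF4 at -1.17 ± 0.15 (limma adjusted p = 0.00284). Of 15 genes of the eIF2 pathway, which includes the stress kinases and ATF4, 4 rose and 2 fell with Wee1 inhibitor II (median 0.15). IMPACT, an inhibitor of the kinase GCN2, stood at 0.74 ± 0.07 and EIF2B1, a subunit of the exchange factor eIF2B, at -0.74 ± 0.08. EIF2AK4, the gene of GCN2 itself, was named after its values were seen. It read 522 and 471 in controls and 934, 1092 and 1001 with Wee1 inhibitor II.

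Since WARS1 is also an interferon target, that response was counted. Of 14 measured interferon genes 3 rose with Wee1 inhibitor II and the other 11 did not pass (median -0.06), beside 14.5% of all genes called higher. IRF1, an interferon-induced transcription factor gene, rose from 53.0 and 57.6 to 112, 116 and 131 (1.11 ± 0.15, limma adjusted p = 0.00129), and was not called with averaged probe sets (1.44, limma adjusted p = 0.098). IFI35 rose by 0.58 ± 0.10 and PSMB9 by 0.35 ± 0.11, and neither was called with centred arrays (adjusted p of 0.0834 and 0.641). With both drugs 4 of the 14 rose and 1 fell (median 0.14), beside 16.7% of all genes higher and 11.3% lower (median 0.11). IRF1 then read 56.5, 76.5 and 64.4 (0.24 ± 0.15, limma adjusted p = 0.305). The summed signal of the 14 genes was 2197 to 2242 in controls, 2335 to 2657 with Wee1 inhibitor II, 2330 to 2514 with 17-AAG and 2632 to 2729 with both drugs.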

How the data were processed

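Per the labels' protocols, 100 ng of total RNA per sample was labelled with biotin by a 3-prime in vitro transcription kit. The deposited values are probe set intensity values on a linear scale, from 0.0212 to 17908, and each array has a 2% trimmed mean of 150. Partek 6.5 and RMA are named in the submitters' processing notes. The array software and further steps are not given in the sources used here. Array medians were 17.7 to 23.1 on the 11 arrays. The number of arrays limits the precision.

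Here the values were log2 transformed and not normalised again. Of 54675 probe sets, 41091 carried 1 gene symbol in the platform annotation, 1801 several, 11721 none and 62 were array controls. The brightest probe set by its 11-array mean stood for each symbol (19775 genes), and 42 symbols were not found by gene ID. No 2 arrays held identical values. One limma 3.58.1 fit (R 4.3.3) over the 11 arrays, with 1 mean per group and 7 residual degrees of freedom (prior df 1.12, prior SD 0.192 on the log2 scale), gave 7 contrasts, and p-values were adjusted over all genes. The procedure was tested on simulated data. Errors of fold changes are standard errors, and group means are geometric.

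Same-numbered arrays did not deviate together (correlations of -0.137 to 0.096), so replicate numbers were not used as a block. Members named were, per comparison, the 6 cytosolic genes of smallest adjusted p, up to 4 called mitochondrial genes, genes moving against their compartment, genes passing the interaction, and WARS1, WARS2, HARS1, HARS2, GARS1 and KARS1. Other members were named beside these to account for the whole list. Of other lists the 3 genes of smallest p with Wee1 inhibitor II were named. MTFMT, EIF2AK4 and the heat shock list were added after values were seen. The members and lists were chosen with earlier results of these data known. Promoter sequences are from RefSeq. Alternatives were control replicate 2 included, array weights, the replicate block, trended and robust priors, quantile normalisation, median centring, a filter on dim genes, a floor of 32, every probe set or the mean of probe sets, only the arrays compared, stricter call rules, and each array left out. The comparison of protein sequences was not run.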

Additional observations from a re-analysis of the deposited data

Results flagged for a closer look

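The effect of 17-AAG differed with and without Wee1 inhibitor II, by limma's test of the interaction itself, in 8 synthetase genes. On the log2 scale the difference was -1.66 for AARS1, -1.14 for CARS1, -0.94 for SARS1, -0.82 for GARS1 and -0.73 for WARS1, and it was 1.00 for EARS2, 0.87 for MARS2 and 0.62 for FARSA. When arrays were left out one at a time, those of WARS1 and FARSA lost their calls in most fits and that of GARS1 without control replicate 1.

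On control replicate 2, which entered no comparison, AARS1 had a signal of 515, above its other controls (199 and 203) and above all 11 arrays compared. Of the 32 measured members, 5 lay above the range of the 11 arrays on this array, 21 below it and 6 within it. The same count was not made over all genes, so these numbers cannot be read as a trait of the synthetase genes. This array also differed from the 11 in its prostate and pigment cell markers, and the part of that in the AARS1 signal was not tested.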

How the results depend on the processing

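As reported, 18 members were called with Wee1 inhibitor II, 11 with 17-AAG, 16 with both drugs, 7 for the addition of Wee1 inhibitor II to 17-AAG, 6 for the addition of 17-AAG to Wee1 inhibitor II, 11 between the single drugs and 8 for the interaction. With control replicate 2 included the counts were 7, 3, 9, 1, 0, 2 and 0 in that order, where limma gave 1 and 6 members an unadjusted p under 0.05 in place of the counts of 0. Calls over all genes fell too, from 4922 to 1268 with Wee1 inhibitor II, from 3309 to 480 with 17-AAG and from 2331 to 119 for the interaction. With a change of at least 2-fold required the member counts were 6, 1, 2, 1, 0 (10 by limma at an unadjusted p under 0.05), 2 and 3. Of all genes 1468, 710, 1982, 882, 734, 911 and 895 were then called. At an adjusted p under 0.01 the member counts were 4 for 17-AAG, 3 for its addition to Wee1 inhibitor II and 4 for the interaction. By that rule 1493, 1487 and 828 of all genes were called. A trended prior gave 17 for 17-AAG, 13 and 10 for the 2 additions, and 14 for the interaction. It called 4397, 4857, 3745 and 3504 of all genes, in place of 3309, 3816, 2791 and 2331. Without the dimmest 40% of genes there were 18 for 17-AAG, 13 for both drugs against 17-AAG and 13 for the interaction. Of the 11865 genes kept, 4431, 4843 and 3558 were then called. A floor of 32 gave 11 for both drugs against 17-AAG, beside 4155 of all 19775 genes. Median centring gave 7 for 17-AAG, the mean of probe sets 6 between the single drugs, and fitting the compared arrays alone 0 for 17-AAG (15 at an unadjusted p under 0.05 by limma), 4 and 3 for the 2 additions. Over all genes the same fits called 2204, 2283, 0, 2620 and 1933. Leaving out 1 array gave 4 to 13 for 17-AAG and 5 to 9 for the interaction. With the replicate block the counts were 17, 9, 12, 6, 6, 10 and 6; the numbers did not pair the arrays. With control replicate 2 included ETF1 reversed to 0.0526 with Wee1 inhibitor II, 0.18 with 17-AAG and 0.0741 with both drugs, and NARS2 to 0.0746 with both drugs. With the mean of probe sets FARSB (0.0439) and SARS1 (-0.25) reversed for both drugs against 17-AAG and DTD1 (0.20) for the interaction. The cause was not tested. Other counts stayed within 1.5 times, and TGATGCAA in place of TGATGNAA left 6 of 7 promoters. Over all values and alternatives, 8035 stayed on their side of the threshold, 709 lost their call or weakened, 174 gained one and 7 reversed. The deposited values carry no detection calls, so how far dim members such as PARS2 (mean signal 70.2) stand above background is not known.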

Other observations

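WARS2-AS1, the antisense neighbour of WARS2 on the arrays, changed by 0.74 ± 0.18 with both drugs (limma adjusted p = 0.0148), while WARS2 itself stood at 0.12 ± 0.11 (limma adjusted p = 0.515). GARS1-DT, the divergent transcript beside GARS1, was not called against control with either drug or both (0.10 ± 0.17, -0.08 ± 0.17 and 0.14 ± 0.17), where GARS1 rose in all 3.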
